A study of Homo sapiens with 12 samples.

Results

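Transcripts of 10 genes that govern the elongation step of RNA polymerase II were followed in 2 human retinoblastoma cell lines exposed to THZ1. THZ1 was made as a covalent inhibitor of CDK7, and CDK12 and CDK13 are among its known targets. The genes were chosen by name. They are the elongation kinases CDK12, CDK13 and CDK9, the cyclins CCNK, CCNT1 and CCNT2, and the proteins of the 7SK inhibitory complex HEXIM1, HEXIM2, LARP7 and MEPCE. All 10 symbols were found, each as 1 row, among 19974 Ensembl genes of the deposited table, and all 10 passed the filter on low counts. WERI-Rb-1 (WERI below) and Y79 are established lines, each grown from a single tumour of the retina and labelled wild type for genotype. That label is given as submitted, does not mean that the tumour lines lack mutations, and mutations were not examined here. Cells of each line received either 50 nM THZ1 or the solvent DMSO at 0.1%, in both cases for 12 h. The 4 groups (WERI DMSO, WERI THZ1, Y79 DMSO and Y79 THZ1) hold 3 biological samples each.

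CDK9 with cyclin T1 or T2 forms P-TEFb, the kinase that releases paused polymerase into productive elongation by phosphorylating the polymerase tail, the DSIF complex and the NELF complex. A large share of P-TEFb is normally held inactive in a particle built on the noncoding 7SK RNA, in which MEPCE caps the RNA, LARP7 binds its end and HEXIM1 or HEXIM2 inhibits the kinase. CDK12 and CDK13 pair with cyclin K, act further along the gene and are known for sustaining the transcription of long genes, DNA repair genes among them. HEXIM1 was first described as a transcript induced by hexamethylene bisacetamide, and its mRNA is widely read as a sign of P-TEFb release.

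All 10 genes are protein coding in GENCODE v29 (GRCh38). CDK12 lies on chromosome 17 (39461511 to 39564907, plus strand) and CDK13 on chromosome 7 (39949646 to 40099580, plus strand), and both span more than any other member, with 103397 and 149935 bases. CCNK lies on chromosome 14 (99481169 to 99535044, plus strand), CDK9 on chromosome 9 (127785679 to 127790787, plus strand), CCNT1 on chromosome 12 (48688458 to 48716998, minus strand) and CCNT2 on chromosome 2 (134918235 to 134959342, plus strand). HEXIM1 (chromosome 17, 45148502 to 45152101) and HEXIM2 (chromosome 17, 45160700 to 45170040) lie close together on the plus strand. LARP7 lies on chromosome 4 (112636964 to 112657592, plus strand) and MEPCE on chromosome 7 (100428790 to 100434126, plus strand). HEXIM1 is the only member with 1 exon, and the principal transcripts of the others hold from 4 to 14. The library kit named in the labels does not keep strand, so reads from overlapping genes cannot be told apart. CCNK shares 4893 exon bases with CCDC85C on the opposite strand, MEPCE shares 203 with ZCWPW1 and LARP7 shares 32 with ZGRF1. CCNK values are therefore uncertain. Annotated noncoding antisense genes, none of them rows of the table, share 520 exon bases with HEXIM1, 1026 with HEXIM2, 302 with LARP7, 148 with CCNT2 and 110 with CDK13.

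The promoters of 3 members are shown because the results turn on them: HEXIM1 was the gene that rose most, MEPCE was lower in both lines, and CDK12 responded differently in each line. The 250 bases before a RefSeq start site (GRCh38.p14, plus strand) are given 5′ to 3′, at chr17:45148225-45148474 for HEXIM1, chr7:100428540-100428789 for MEPCE and chr17:39461236-39461485 for CDK12. None of these stretches holds an annotated exon of its gene, and MEPCE has other start sites in the same table. Capitals mark matches on either strand to 7 motifs. TATAAA was searched as the core of a TATA box and CCAAT as that of a CCAAT box. GGGCGG stood for the GC box bound by Sp1 and related factors, and CACGTG for the E-box bound by MYC and related factors. The cyclic AMP response element was searched as TGACGTCA, the site of the factor AP-1 as TGACTCA and the site of ETS family factors as CCGGAAG.
HEXIM1: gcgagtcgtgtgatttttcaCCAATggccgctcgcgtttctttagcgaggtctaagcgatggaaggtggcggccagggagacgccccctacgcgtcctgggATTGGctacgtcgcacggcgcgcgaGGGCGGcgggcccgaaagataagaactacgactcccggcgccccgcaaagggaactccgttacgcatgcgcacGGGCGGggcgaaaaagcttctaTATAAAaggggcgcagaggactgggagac
MEPCE: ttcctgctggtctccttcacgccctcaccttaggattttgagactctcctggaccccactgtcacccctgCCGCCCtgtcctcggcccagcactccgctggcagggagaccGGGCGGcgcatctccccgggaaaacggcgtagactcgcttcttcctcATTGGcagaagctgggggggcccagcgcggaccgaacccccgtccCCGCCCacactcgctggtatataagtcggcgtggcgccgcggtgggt
CDK12: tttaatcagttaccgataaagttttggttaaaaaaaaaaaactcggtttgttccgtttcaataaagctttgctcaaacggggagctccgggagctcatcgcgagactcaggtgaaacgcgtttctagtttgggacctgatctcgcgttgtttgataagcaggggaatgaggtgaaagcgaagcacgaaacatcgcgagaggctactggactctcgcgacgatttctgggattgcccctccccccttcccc

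The HEXIM1 stretch held TATAAA at bases 29 to 24 before the RefSeq start, 2 CCAAT boxes and 2 GC boxes. The GENCODE v29 start of HEXIM1 (45148502) lies downstream of the end of this stretch (45148474), so TATAAA is farther from that start. Of 35116 promoters in the table, 10.7% held TATAAA on either strand, and 2.25% held it on the gene's strand within bases 40 to 21 before the start. Among the 16 promoter entries of the 10 genes, the HEXIM1 entry was the only one with TATAAA. The MEPCE stretch held 1 CCAAT box and 3 GC boxes, against 32.0% of all promoters with a CCAAT box and 42.6% with a GC box. Near its end it also reads TATATAAG, a TATA-like run that the exact search for TATAAA does not match. The lack of TATAAA in an entry therefore does not mean that it lacks a TATA box. Other MEPCE entries differed in content. The one at chr7:100429197-100429446 held GC boxes and an E-box (bases 124 to 119, a motif in 6.34% of all promoters) but no CCAAT box. The one at chr7:100429581-100429830 held none of the 7 motifs. None of the 7 motifs occurred in the CDK12 stretch. These are matches of letters and were not tested for use in the cells.

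The 12 libraries held from 29677575 to 37433574 counts. Photoreceptor markers were expressed in every group, with 14 or 15 of 16 genes at a mean of at least 1 CPM (counts scaled to a common library size with edgeR's TMM factors, under which the typical gene is taken as unchanged) and the homeobox genes CRX and OTX2 at 158.8 CPM or more. Of 10 glial and pigment epithelium markers, 3 to 5 reached 1 CPM, and their summed level ran from 163 to 520 CPM. That sum was higher in treated than in control WERI libraries (199 to 223 against 163 to 171 CPM), and the ranges overlapped in Y79. Mean GLUL, at 498.8 CPM in controls and 443.8 after THZ1, made up most of the Y79 sum. Stromal and blood markers summed to 26.8 to 31.4 CPM in WERI controls and 59.7 to 61.8 after THZ1. In Y79 they summed to 10.3 to 13.9 and 30.03 to 47.5 CPM. Most of each sum was 1 gene, mean COL1A1 in WERI (24.8 and 52.4 CPM) and mean HBA1 in Y79 (8.94 and 28.7). Other members went opposite ways in WERI, as with CD68 (0.674 and 2.60) and PECAM1 (1.46 and 1.17). CD3E was at 0 in every library of 3 of the groups. TYR was at 0 in all 12 libraries. Summed photoreceptor levels ran from 2710 to 2810 CPM in WERI controls and from 2193 to 2300 after THZ1, and from 2039 to 2041 and 2406 to 2621 in Y79. These sums hide members that went opposite ways within each line. Mean AIPL1 rose from 437.2 to 896.6 CPM in WERI and from 683.9 to 1665.5 in Y79. Mean OTX2 fell from 940.1 to 325.1 CPM in WERI and from 609.6 to 158.8 in Y79. The part of these marker genes in the results below was not tested. The share of counts from mitochondrially encoded mRNAs, which RNA polymerase II does not make, ran from 3.74% to 4.46% in control libraries and from 8.44% to 11.2% in treated ones. Among the Y79 treated libraries, replicate 2 stood apart, with a TMM factor of 0.696 against 0.790 and 0.802, and values without it are given where they matter.

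Direction therefore depends on what a transcript is compared with. Under TMM the median log2 fold change of all 14865 tested genes was -0.11 in WERI and -0.09 in Y79. With library size alone it was -0.56 and -0.65, and relative to mitochondrially encoded mRNAs -2.02 and -1.81. Fold changes below are under TMM, that is, relative to the typical gene, and a loss of RNA per cell common to most genes does not show in them. In bulk RNA, fewer cells with a transcript and less of it per cell cannot be told apart. An error given with a group mean is the SD over its 3 cultures, and one given with a log2 fold change is its SE. Each adjusted p comes from edgeR's quasi-likelihood test.

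In WERI cells THZ1 raised HEXIM1 about 4-fold against the typical gene and lowered its partners in the 7SK particle, LARP7, MEPCE and the paralogue HEXIM2. Within P-TEFb the kinase gene CDK9 rose slightly under TMM, with the sign turned under both other scalings, while the cyclin genes CCNT1 and CCNT2 fell. CDK12, CDK13 and CCNK were not called. In all, 2 of the 10 were higher and 5 lower, against 27.7% and 37.2% of all tested genes (64.8% in either direction). Treated and control CPM did not overlap for 7 of 10 members, against 75.9% of all tested genes. The median log2 fold change of the 10 was -0.29, beside -0.11 for all genes.

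In Y79 cells HEXIM1 rose about 3-fold against the typical gene, though not against mitochondrially encoded mRNAs, and LARP7, MEPCE, HEXIM2 and CCNT1 fell, as did CDK12. CCNT2, CDK9, CDK13 and CCNK were not called. This made 1 member higher and 5 lower, against 29.9% and 38.5% of all tested genes (68.3% in either direction). Treated and control CPM did not overlap for 6 of 10, against 68.9% of all genes. The median of the 10 was -0.47, beside -0.09 for all genes. In both lines the share of members called was near that of all genes.

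**Figure D1:**
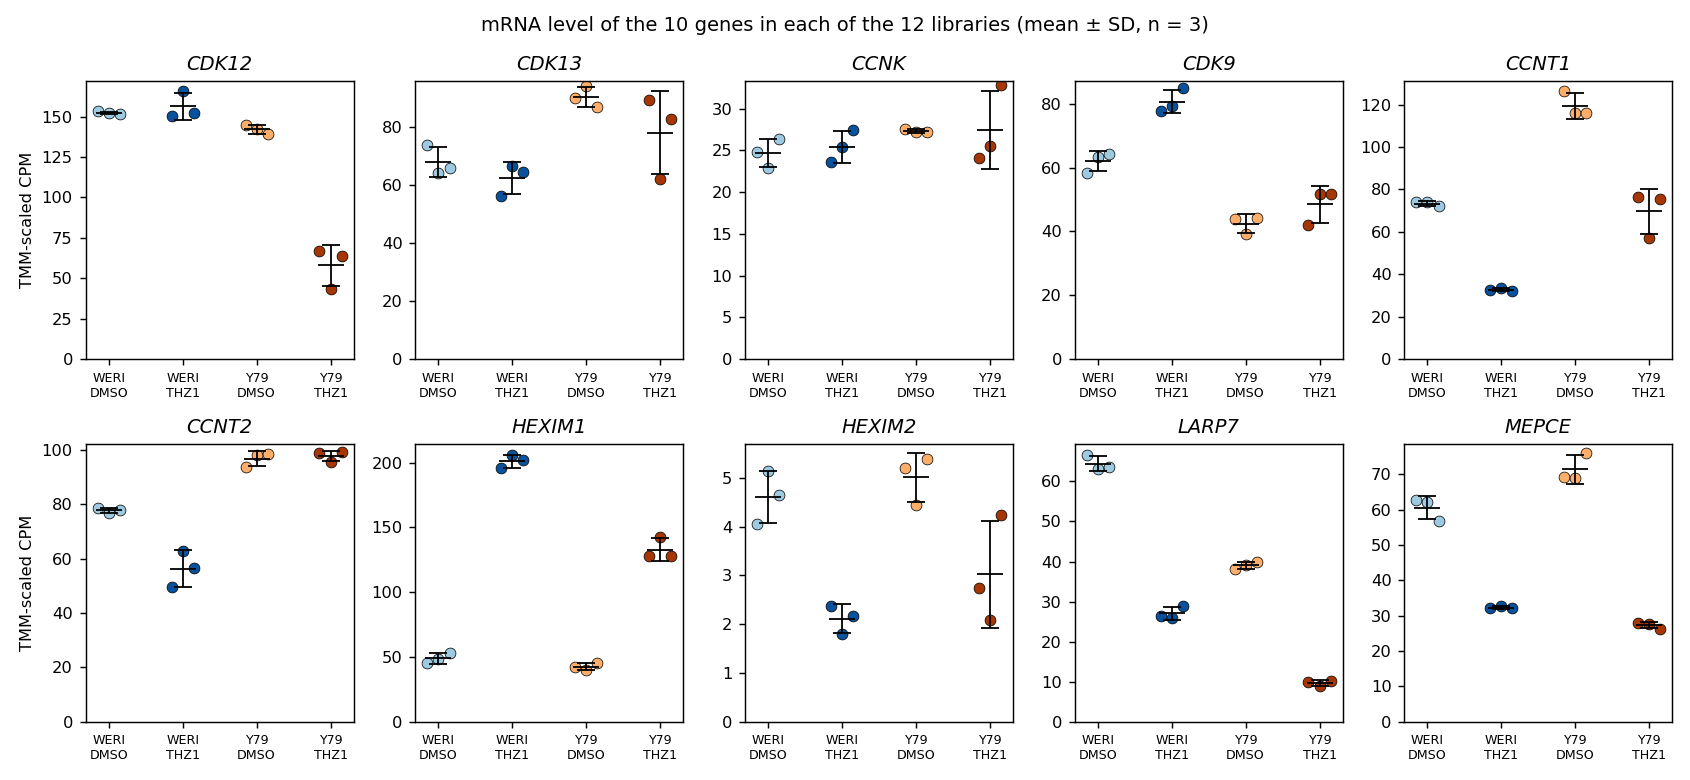
TMM-scaled CPM (vertical axes, each from 0) of the 10 genes in every library, by group (horizontal axes), with points for single cultures and bars for mean and SD. HEXIM1 stands at 195.5 to 205.6 CPM in treated WERI libraries against 45.3 to 53.1 in controls, while LARP7 and MEPCE are lower after THZ1 in both lines.

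HEXIM1 encodes the main inhibitory protein of the 7SK particle. WERI controls held 45.3, 48.3 and 53.1 CPM of HEXIM1 (1929, 1986 and 2444 counts) and treated WERI libraries 195.5, 205.6 and 202.4. In Y79 the values were 42.4, 40.1 and 45.0 CPM in controls and 127.7, 143.0 and 127.6 after THZ1. Every treated library stood above every control of either line, and the 3 treated WERI libraries stood above the 3 treated Y79 libraries. The log2 fold change was 2.04 ± 0.078 in WERI (adjusted p = 2.56e-10) and 1.64 ± 0.078 in Y79 (adjusted p = 5.95e-10). These changes lay at percentiles 97.8 and 92.6 of all tested genes. With library size alone they were 1.59 and 1.07, both still called. Relative to mitochondrially encoded mRNAs they were 0.14 (adjusted p = 0.223) and -0.07 (adjusted p = 0.596), so the rise is a rise against other nuclear transcripts.

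HEXIM2 encodes the paralogue that can take HEXIM1's place in the particle. Its mRNA was the rarest of the 10 per transcript length in every group. There were 173, 211 and 214 HEXIM2 counts in WERI controls and 68, 53 and 63 after THZ1. Scaled, this was 4.61 ± 0.538 CPM before and 2.12 ± 0.296 CPM after, with a log2 fold change of -1.12 ± 0.245 (adjusted p = 0.00120). In Y79 the counts were 219, 177 and 224 in controls and 76, 43 and 102 in treated libraries. Scaled, this was 5.01 ± 0.504 CPM before and 3.02 ± 1.11 CPM after, with a log2 fold change of -0.73 ± 0.242 (adjusted p = 0.0175). Treated and control levels did not overlap in either line, but the highest treated Y79 library (4.24 CPM) came close to the lowest control (4.44 CPM). Without control replicate 3 the call in Y79 was lost (-0.68, adjusted p = 0.0515), and without treated replicate 2 the adjusted p was 0.0491.

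LARP7 encodes the protein that keeps 7SK RNA stable. ZGRF1, which shares 32 exon bases with it, rose in WERI (0.79 ± 0.105, adjusted p = 1.40e-05). WERI controls held 66.5, 63.1 and 63.5 CPM of LARP7 and treated libraries 26.4, 25.9 and 28.97. In Y79 the levels were 38.1, 39.0 and 39.97 CPM in controls and 9.88, 8.96 and 10.3 after THZ1. The 4 groups were fully separated, in the order WERI control, Y79 control, treated WERI and treated Y79. The log2 fold change was -1.25 ± 0.077 in WERI (adjusted p = 1.01e-08) and -2.01 ± 0.082 in Y79 (adjusted p = 1.81e-10), the lowest of the 10 genes in each line. It lay at percentiles 12.9 and 6.18 of all tested genes.

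MEPCE encodes the methyltransferase that caps 7SK RNA. Its level was 62.7, 62.3 and 56.7 CPM in WERI controls and 32.0, 32.7 and 32.1 after THZ1. Y79 controls held 69.1, 68.8 and 76.1 CPM and treated Y79 libraries 27.9, 27.5 and 26.3. Treated libraries were below controls in both lines and differed little among themselves. The log2 fold change was -0.91 ± 0.071 in WERI (adjusted p = 8.80e-08) and -1.39 ± 0.072 in Y79 (adjusted p = 1.34e-09). ZCWPW1, which shares exon bases with it, was at 0.37 ± 0.222 in WERI (adjusted p = 0.173) and 0.59 ± 0.226 in Y79 (adjusted p = 0.0356).

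CDK9 encodes the kinase of P-TEFb. Levels in WERI were 58.3, 63.3 and 64.2 CPM in controls and 77.8, 79.3 and 84.8 after THZ1, with no overlap. In Y79 they were 44.0, 39.1 and 44.3 CPM in controls and 41.9, 51.7 and 51.7 after THZ1, and treated replicate 1 fell among the controls. CDK9 rose in WERI by 0.38 ± 0.089 (adjusted p = 0.00202), and in Y79 its log2 fold change was 0.19 ± 0.090 (adjusted p = 0.0829). The Y79 value passed the threshold without treated replicate 1 (0.27, adjusted p = 0.0128). With library size alone both signs turned, to -0.07 in WERI (adjusted p = 0.526) and -0.38 in Y79 (adjusted p = 0.00206).

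CCNT1 and CCNT2 encode the alternative cyclins T1 and T2. CCNT1 went from 74.0, 73.9 and 72.0 CPM to 32.6, 33.5 and 32.0 in WERI, and from 126.4, 115.9 and 116.0 to 76.4, 57.2 and 75.2 in Y79. Treated libraries of each line lay below its controls, and treated Y79 libraries overlapped untreated WERI libraries. The log2 fold change was -1.17 ± 0.095 in WERI (adjusted p = 1.30e-07) and -0.78 ± 0.093 in Y79 (adjusted p = 4.84e-06). CCNT2 went from 78.7, 76.7 and 77.9 CPM to 49.4, 62.8 and 56.7 in WERI, and its fitted change there was -0.47 ± 0.078 (adjusted p = 0.000125). In Y79 it stood at 93.5, 98.2 and 98.4 CPM in controls and 98.8, 95.6 and 99.0 after THZ1, which overlap. There the fitted change was 0.02 ± 0.077 (adjusted p = 0.885), and -0.55 with library size alone (adjusted p = 0.000153).

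CDK12 encodes a cyclin K-dependent kinase of the polymerase tail. WERI controls held 153.1, 152.1 and 151.6 CPM of CDK12 and treated WERI libraries 150.6, 165.8 and 152.4, which overlap. Y79 controls held 144.8, 142.1 and 139.3 CPM and treated Y79 libraries 67.0, 43.6 and 63.7, far below. The log2 fold change was 0.04 ± 0.116 in WERI (adjusted p = 0.804) and -1.29 ± 0.119 in Y79 (adjusted p = 3.40e-07). Treated Y79 replicate 2 was the lowest library, and without it the Y79 change was -1.15 (adjusted p = 5.73e-12). In WERI, CDK12 was called lower with library size alone (-0.41, adjusted p = 0.0282).

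CDK13, the paralogue of CDK12, and CCNK, which encodes their cyclin, were not called in either line under TMM. CDK13 stood at 73.7, 64.3 and 65.8 CPM in WERI controls and 56.3, 66.5 and 64.4 after THZ1. In Y79 it was at 90.0, 94.0 and 87.1 CPM in controls and 89.3, 62.1 and 82.8 after THZ1, with replicate 2 apart from the others. Its log2 fold changes were -0.12 ± 0.114 (adjusted p = 0.377) and -0.21 ± 0.114 (adjusted p = 0.126), and without treated Y79 replicate 1 the latter was called (-0.34, adjusted p = 0.0188). CCNK stood at 24.8, 22.9 and 26.3 CPM in WERI controls and 23.6, 25.4 and 27.4 after THZ1. Its Y79 levels were 27.6, 27.2 and 27.2 CPM in controls and 24.0, 25.5 and 32.8 after THZ1, which surround the controls. The fitted changes of CCNK were 0.04 ± 0.112 (adjusted p = 0.766) and 0.01 ± 0.113 (adjusted p = 0.991). Its antisense neighbour CCDC85C fell in the same libraries, by 0.66 in WERI (SE 0.056, adjusted p = 1.75e-07) and by 0.84 in Y79 (SE 0.056, adjusted p = 1.35e-08).

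**Figure D2:**
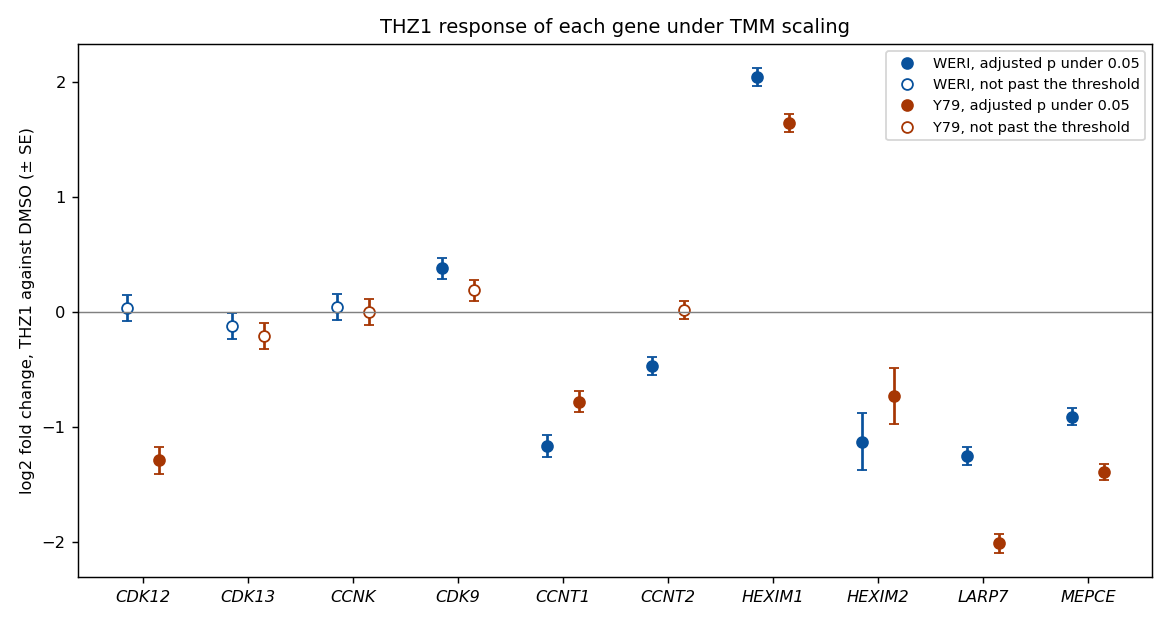
Log2 fold change (vertical axis, bars are SE) of THZ1 against DMSO for each gene (horizontal axis) in WERI and Y79, with filled points where the adjusted p is under 0.05. HEXIM1 lies at 2.04 and 1.64 (0.14 and -0.07 relative to mitochondrially encoded mRNAs), LARP7 at -1.25 and -2.01, and CDK12 is near 0 in WERI and at -1.29 in Y79.

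Both other scalings lowered the fold changes of all 10 members in each line. Relative to mitochondrially encoded mRNAs, 9 of 10 members were lower and 0 higher in WERI, and again 9 and 0 in Y79, with HEXIM1 the member not called in either line. Under this scaling 89.9% of all tested genes were lower and 0.69% higher in WERI, and 82.1% and 1.82% in Y79, so the counts are near the background. With library size alone, 1 member was higher and 8 lower in WERI (14.9% and 53.6% of all genes), and 1 and 9 in Y79 (14.6% and 56.1%). The member higher with library size was HEXIM1 in each line. For the difference between the lines' responses, library size gave 0 members higher and 4 lower (4.98% and 18.1% of all genes), and mitochondrial scaling 2 and 2 (11.9% and 4.77%). For the lines in DMSO, these scalings gave 1 higher and 3 lower (24.5% and 38.5%) and 1 and 4 (18.2% and 42.5%).

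**Figure D3:**
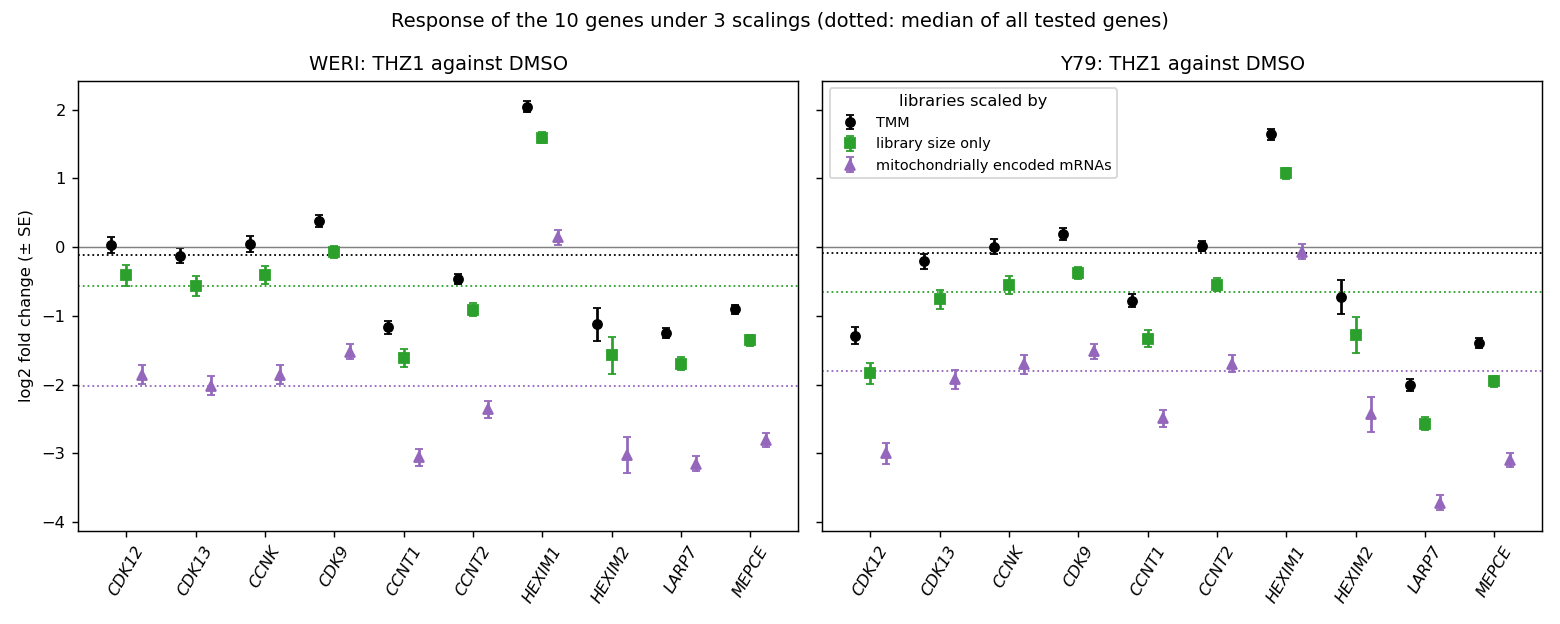
Log2 fold change (vertical axis, bars are SE) of the 10 genes (horizontal axis) in WERI (left) and Y79 (right) with libraries scaled by TMM, by library size or by mitochondrially encoded mRNAs, and dotted lines for the median of all tested genes under each. HEXIM1 is the highest of the 10 under each scaling, at 2.04, 1.59 and 0.14 in WERI and at 1.64, 1.07 and -0.07 in Y79.

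Ratios between the counts of 2 members within a library do not depend on scaling, and 6 such ratios were compared in each line. Since gene lengths differ, their shifts between groups can be read but not which gene is the more abundant. HEXIM1 had 11.2, 9.41 and 11.4 times the counts of HEXIM2 in WERI controls and 82.2, 114.6 and 93.1 times after THZ1. In Y79 the ratio went from 8.16, 9.03 and 8.35 to 46.6, 68.7 and 30.1. The mean log2 ratio thus rose by 3.17 in WERI and 2.43 in Y79, a 9.01-fold and a 5.39-fold shift. The ratio of HEXIM1 to its target kinase CDK9 was 0.776, 0.763 and 0.827 in WERI controls and 2.51, 2.59 and 2.39 after THZ1. In Y79 it was 0.965, 1.03 and 1.02 in controls and 3.05, 2.77 and 2.47 after THZ1. The shift was 3.17-fold in WERI and 2.74-fold in Y79.

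Ratios within the other paralogue or partner pairs shifted without overlap in Y79. In WERI this held only for CCNT2 to CCNT1 and LARP7 to MEPCE. CCNT2 had 1.06, 1.04 and 1.08 times the counts of CCNT1 in WERI controls and 1.52, 1.87 and 1.77 times after THZ1. In Y79 this ratio went from 0.740, 0.848 and 0.848 to 1.29, 1.67 and 1.32, a 1.75-fold shift. CDK12 had 1.61, 1.51 and 1.60 times the counts of CDK13 in Y79 controls and 0.750, 0.703 and 0.770 after THZ1, a 2.13-fold drop. In WERI that ratio was 2.08, 2.37 and 2.30 in controls and 2.68, 2.49 and 2.36 after THZ1, which overlap (exact permutation p = 0.2, two-sided). The ratio of CCNK to CDK12 rose 2.47-fold in Y79 and overlapped in WERI, where it shifted by 0.01 on the log2 scale. LARP7 lost more than MEPCE, with a log2 ratio lower by 0.34 in WERI (from 0.09 ± 0.073 to -0.25 ± 0.096) and by 0.62 in Y79 (from -0.87 ± 0.056 to -1.49 ± 0.130). For the 10 comparisons without overlap the two-sided exact permutation p was 0.1, which is the lowest possible with 3 libraries a group, and 0.12 after Benjamini-Hochberg adjustment over 12 tests, so none could pass 0.05.

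**Figure D4:**
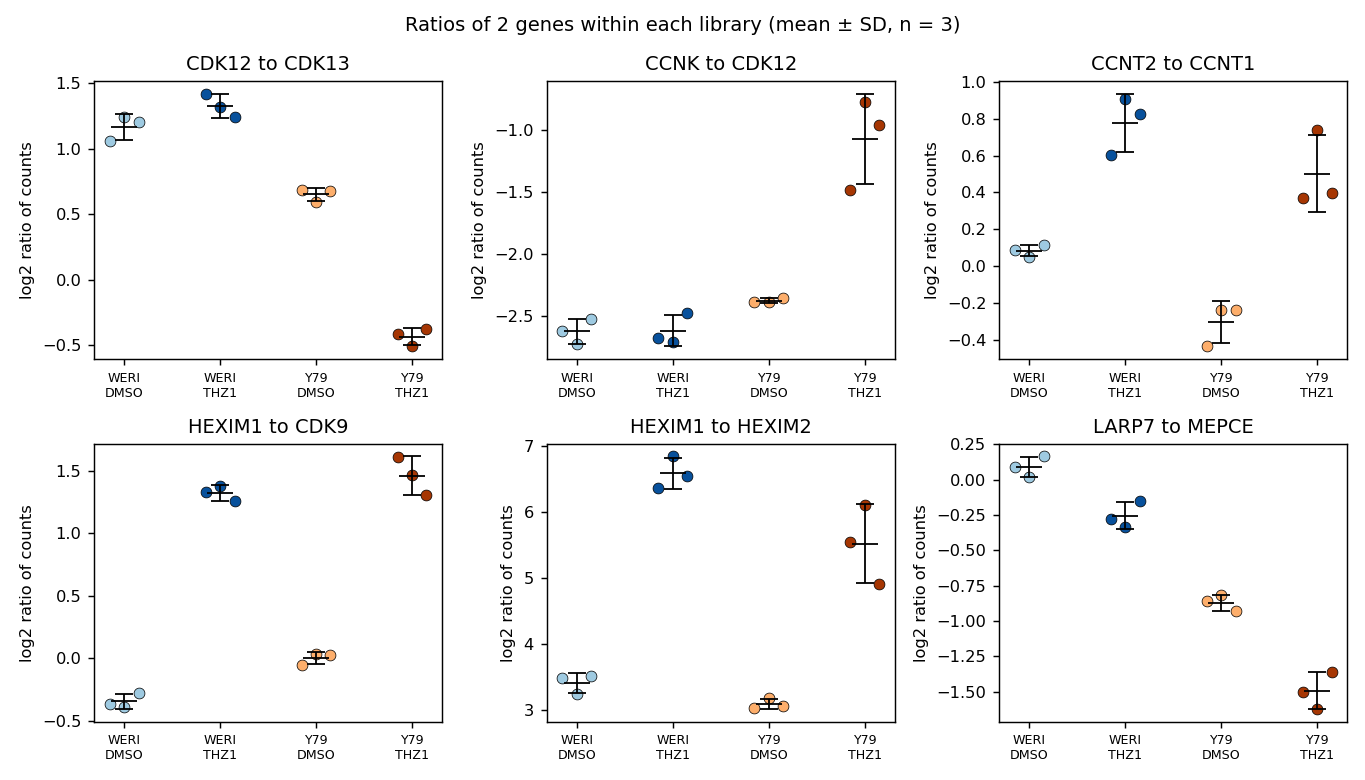
Log2 ratio of the counts of 2 genes (vertical axes) within each library, by group (horizontal axes), with points for single cultures and bars for mean and SD. Treated and control libraries are apart in both lines for CCNT2 to CCNT1, HEXIM1 to CDK9, HEXIM1 to HEXIM2 and LARP7 to MEPCE, and in Y79 also for CDK12 to CDK13 and CCNK to CDK12.

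Levels of different genes were compared as CPM per kb of the principal GENCODE transcript. In WERI controls LARP7 (28.2 ± 0.819 CPM per kb) and CDK9 (25.2 ± 1.29) were the most abundant, HEXIM1 stood in the middle at 13.6 ± 1.10, and HEXIM2 was lowest at 3.02 ± 0.352. After THZ1, HEXIM1 led in WERI at 55.9 ± 1.43 CPM per kb, ahead of CDK9 at 32.7 ± 1.501, and LARP7 had dropped to 11.9 ± 0.723. In Y79 controls MEPCE led at 23.5 ± 1.36 CPM per kb, with CDK9 (17.2 ± 1.17), CCNT1 (17.1 ± 0.865), LARP7 (17.1 ± 0.406) and CDK12 (17.0 ± 0.329) within each other's spread. After THZ1, HEXIM1 led in Y79 too at 36.9 ± 2.46 CPM per kb, followed by CDK9 at 19.7 ± 2.31. LARP7 at 4.24 ± 0.294 was then above HEXIM2 alone, which stood at 1.98 ± 0.723. The isoform mix is not known, and the order in controls depends on the length used. With the union of all annotated exons as length, CDK13 in WERI controls would drop from 6.70 to 2.71 CPM per kb. There CDK9 (20.7) and MEPCE (17.7) would stand above LARP7 (15.8). In Y79 controls MEPCE (20.9) would still lead, but CCNT1 (16.2), CDK9 (14.1), CDK12 (11.1) and LARP7 (9.56) would lie farther apart. HEXIM1 would still lead both treated groups.

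**Figure D5:**
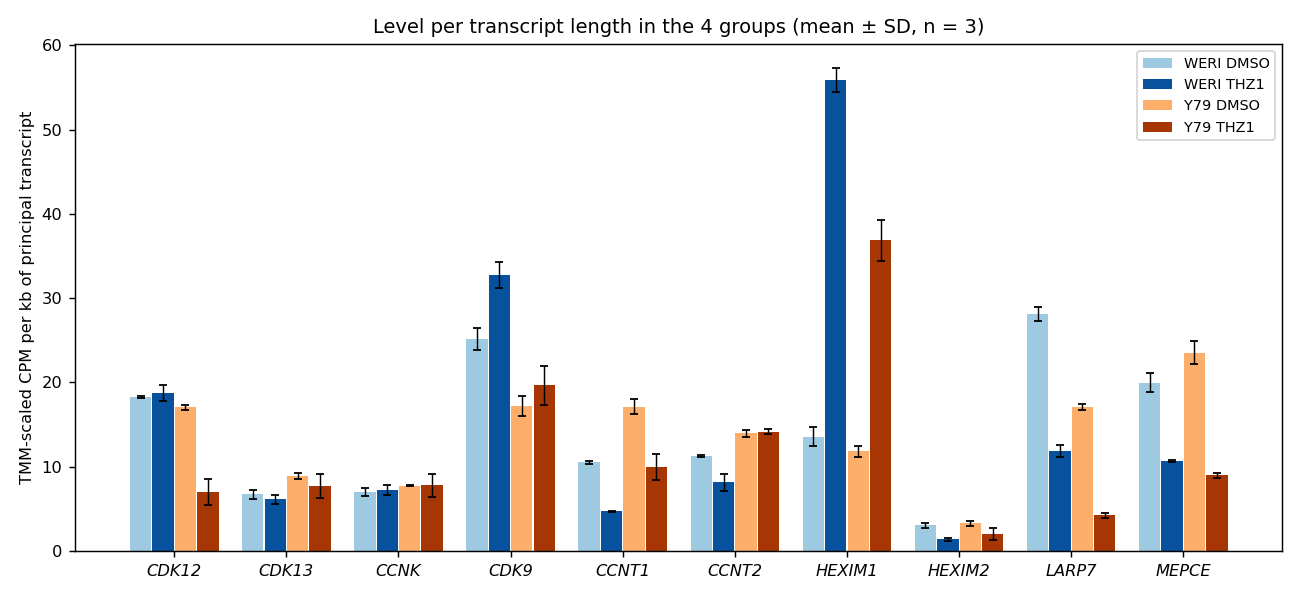
Mean level per kb of principal transcript (vertical axis from 0, bars are SD, n = 3) of the 10 genes (horizontal axis) in the 4 groups. HEXIM1 is the tallest bar in both treated groups, at 55.9 and 36.9 CPM per kb, and was at 13.6 and 11.8 in the controls.

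The THZ1 response itself differed between the lines for 5 of the 10 genes, tested as the difference between the changes (Y79 minus WERI). CDK12, LARP7, MEPCE and HEXIM1 had the lower value in Y79 and CCNT2 the higher one. Of all tested genes, 22% differed, 13.2% with a lower and 8.73% with a higher response in Y79. CDK12 showed the widest gap, -1.32 ± 0.166 (adjusted p = 0.000169), at percentile 3.75 of all genes, and -1.16 without treated Y79 replicate 2 (adjusted p = 1.79e-08). LARP7 differed by -0.76 ± 0.111 (adjusted p = 0.000475) and MEPCE by -0.48 ± 0.101 (adjusted p = 0.00483), although MEPCE was no longer called relative to mitochondrially encoded mRNAs (-0.30, adjusted p = 0.163). CCNT2 differed by 0.48 ± 0.109 (adjusted p = 0.00778), and by 0.37 with library size alone (adjusted p = 0.0734). HEXIM1 differed by -0.40 ± 0.107 (adjusted p = 0.0202), and by -0.21 relative to mitochondrially encoded mRNAs, no longer called (adjusted p = 0.402).

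Calls near the threshold in this test also moved with single libraries. The HEXIM1 difference missed the threshold on leaving out WERI control replicate 1 (adjusted p = 0.0590) or 2 (0.0517), treated WERI replicate 2 (0.0637), Y79 control replicate 3 (0.0563), or treated Y79 replicate 1 (0.0540) or 3 (0.0542), and kept its sign each time. CCNT1, at 0.39 ± 0.132 (adjusted p = 0.0573), passed without treated Y79 replicate 2 (0.51, adjusted p = 6.03e-05). HEXIM2 at 0.40 ± 0.343 (adjusted p = 0.478), CDK9 at -0.19 ± 0.127 (adjusted p = 0.336), CDK13 at -0.09 ± 0.161 (adjusted p = 0.783) and CCNK at -0.04 ± 0.159 (adjusted p = 0.927) were not called. A p that misses the threshold does not show that these 4 genes responded alike.

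The lines differed in these transcripts before treatment. In DMSO, Y79 had more CCNT1, CDK13, CCNT2 and MEPCE and less LARP7, CDK9 and HEXIM1 than WERI, that is 4 members higher and 3 lower, against 32.3% and 32.6% of all tested genes (64.9% in either direction). CPM of the lines did not overlap for 9 of 10 members, against 77.9% of all genes. CCNT1 was higher in Y79 by 0.70 ± 0.093 (adjusted p = 1.60e-05) and CDK13 by 0.41 ± 0.114 (adjusted p = 0.00633). LARP7 stood at -0.72 ± 0.076 (adjusted p = 1.65e-06) and CDK9 at -0.55 ± 0.089 (adjusted p = 0.000120). CCNT2 was at 0.31 ± 0.077 (adjusted p = 0.00280), and neither it nor CDK13 was called with library size alone (adjusted p = 0.179 and 0.149).

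Calls of smaller baseline differences depended on single libraries under TMM. MEPCE was higher in Y79 by 0.24 ± 0.070 (adjusted p = 0.00922) but missed the threshold without WERI control replicate 3 (adjusted p = 0.0542) or Y79 control replicate 3 (adjusted p = 0.0511), and its sign turned relative to mitochondrially encoded mRNAs (-0.04). HEXIM1 was lower by 0.20 (log2 -0.20 ± 0.077, adjusted p = 0.0347), which was lost without WERI control replicate 2 (0.0656) or 3 (0.179), treated WERI replicate 3 (0.0508) or Y79 control replicate 1 (0.0840) or 2 (0.139). With library size alone it was -0.36 (adjusted p = 0.000907), and relative to mitochondrially encoded mRNAs -0.49 (adjusted p = 0.000914). CDK12 at -0.10 ± 0.116 (adjusted p = 0.477), CCNK at 0.15 ± 0.112 (adjusted p = 0.271) and HEXIM2 at 0.12 ± 0.234 (adjusted p = 0.682) were not called. CDK12 was called without treated Y79 replicate 2 (-0.12, adjusted p = 0.0326).

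Ranked by level over the 4 groups, the members formed different patterns. HEXIM1 ran from treated WERI through treated Y79 and WERI control to Y79 control, with no overlap between neighbours. MEPCE ran from Y79 control through WERI control and treated WERI to treated Y79, also without overlap. For CDK12 only the step from Y79 control to treated Y79 was wide, at 2.44-fold. Neighbouring groups of CDK13, CCNK and HEXIM2 overlapped at every step. For CDK9 the treated and control Y79 groups at the low end overlapped, and for CCNT2 the same 2 groups at the high end.

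Genes with the most similar pattern over the 12 libraries were found by Pearson correlation of log2 CPM among all tested genes, as a description without a test, since the libraries fall into 4 groups and share treatment and depth. HEXIM1 was closest to ATF6B (r = 0.995), IER5L (0.995) and SEPT2 (0.994), whose log2 fold changes in WERI were 1.43, 3.44 and 1.33. CDK12 was closest to DHX40 (0.990), AP3M1 (0.982) and SPTLC2 (0.980). LARP7 was closest to CDC42EP4 (0.997), HEATR3 (0.996) and MUT (0.996), and MEPCE to UBE2R2 (0.996), TSG101 (0.995) and SART3 (0.995). CCNT1 was closest to TEX15 (0.993) and OPA3 (0.993), and CCNT2 to CDYL (0.978), SRPK1 (0.977) and C22orf46 (0.976). For CDK9 these were IL32 (0.989), TRPM4 (0.984) and ZNF688 (0.980), and for HEXIM2 PRKCA (0.970), CCDC88C (0.959) and POLR3E (0.955).

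Other genes of the pathway were counted in 6 lists. They stand beside 27.7% of all tested genes higher and 37.2% lower in WERI (median -0.11), and 29.9% and 38.5% in Y79 (median -0.09). Summed over the lists, 28 genes were higher and 45 lower in WERI, but 14 and 66 with library size alone and 0 and 98 relative to mitochondrially encoded mRNAs. In Y79 these sums were 29 and 50, 15 and 69, and 0 and 93. All listed genes named as higher here had a negative log2 fold change relative to mitochondrially encoded mRNAs, except ELL3 in Y79 (0.34). The 13 factors that bind 7SK RNA or release P-TEFb from it had 7 higher and 2 lower members in WERI and 6 and 2 in Y79 (median 0.23 and 0.24). The RNA-binding protein gene HNRNPA1, whose product takes up 7SK RNA freed of P-TEFb, rose by 1.499 ± 0.114 in WERI and 1.61 ± 0.114 in Y79. HNRNPA2B1 rose by 1.48 ± 0.088 in WERI, and HTATSF1 by 1.45 ± 0.110 in Y79. SART3, which binds HEXIM1, fell by 1.59 in WERI (SE 0.075) and by 2.38 in Y79 (SE 0.077). The phosphatase gene PPM1G was at -0.51 ± 0.127 in WERI and the splicing factor gene SRSF1 at -0.60 ± 0.062 in Y79, both called. SRSF1 was called higher in WERI (0.17 ± 0.062, adjusted p = 0.0298), and PPM1G was not called in Y79 (-0.21 ± 0.126, adjusted p = 0.170). Without treated Y79 replicate 2 the lower members of this list in Y79 numbered 4, where 6001 of 15111 genes were lower, against 5721 of 14865 with all libraries.

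Of 19 genes for DSIF, NELF, the PAF1 complex and related factors, 6 were higher and 9 lower in WERI, and 5 and 11 in Y79 (median -0.23 and -0.40). PAF1, a subunit of the complex named after it, fell by 1.86 in WERI (SE 0.118) and by 2.00 in Y79 (SE 0.119). The log2 fold changes of IWS1 in WERI and Y79 were -1.23 ± 0.071 and -2.56 ± 0.075. NELFCD, a subunit of the pausing complex, rose by 0.97 ± 0.078 and 0.95 ± 0.078. TCEA1, which restarts stalled polymerase, rose by 1.04 ± 0.066 in WERI, and SUPT5H, the large DSIF subunit, by 1.01 ± 0.075 in Y79. Of 18 tested P-TEFb recruiters and super elongation complex genes, 3 were higher and 7 lower in WERI, and 5 and 9 in Y79 (median -0.33 and -0.32). BRD2 rose by 0.49 ± 0.065 and TRIM28 by 0.44 ± 0.101 in WERI. In Y79, BRD2 was called lower (-0.37 ± 0.065, adjusted p = 0.000186), and TRIM28 was at 0.39 ± 0.101. BRD3 fell by 1.37 in WERI (SE 0.068), and NUFIP1 by 1.33 in WERI (SE 0.154) and by 2.25 in Y79 (SE 0.160). EAF2 was at -1.37 ± 0.319 and ELL3 at 2.04 ± 0.402 in Y79, the latter from a mean of only 0.227 CPM.

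Of 10 other transcriptional kinases and cyclins, 4 were higher and 4 lower in WERI, and 4 and 6 in Y79 (median -0.18 and -0.34). CCNL1 and CCNL2, the cyclins of CDK11, rose by 1.36 ± 0.072 and 1.25 ± 0.068 in WERI and by 1.61 ± 0.072 and 1.68 ± 0.069 in Y79. CDK7 was at -1.89 ± 0.126 and -1.83 ± 0.122, and its assembly partner MNAT1 at -0.66 ± 0.119 and -1.05 ± 0.120. Of 19 phosphatases and readers of the polymerase tail, 5 were higher and 11 lower in WERI, and 6 and 11 in Y79 (median -0.65 and -0.25). PPP1R10, a targeting subunit of the phosphatase PP1, fell by 2.54 in WERI (SE 0.124) and by 2.55 in Y79 (SE 0.125). CTDP1, the main tail phosphatase, was at -2.02 ± 0.101 and -1.97 ± 0.102. SCAF4, which binds the phosphorylated tail, rose by 0.66 ± 0.077 and 1.01 ± 0.078, RPRD1A by 0.53 ± 0.070 in WERI and CTDSPL by 1.39 ± 0.086 in Y79.

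Of 19 DNA repair genes of recombination and replication stress, a class that includes known targets of CDK12, 3 were higher and 12 lower in WERI, and 3 and 11 in Y79 (median -0.31 and -0.56). Lengths of these genes were not measured. RAD51D fell by 1.38 in WERI (SE 0.132) and BLM by 1.11 (SE 0.114), while PALB2 fell by 1.70 in Y79 (SE 0.093) and RAD51C by 1.44 (SE 0.073). FANCI rose by 0.74 ± 0.059 and FANCA by 0.60 ± 0.094 in WERI, and FANCA by 0.96 ± 0.093 and FANCD2 by 0.55 ± 0.082 in Y79. The higher members in Y79 numbered 6 without treated Y79 replicate 2, where 4387 of 15111 genes were higher, against 4439 of 14865 with all libraries. The response differed between the lines for 5 of the 19, against 22% of all tested genes. It was lower in Y79 for PALB2 (-0.72), ATR (-0.66), RAD51C (-0.50) and NBN (-0.39) and higher for RAD51D (0.60), genes named here after their values were seen.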

How the data were processed

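RNA-seq counts per gene were measured in 12 libraries. The deposited table holds whole-number counts that the authors left without normalization as far as the values show. Cufflinks and GRCh38 are named in the submitters' processing notes, and the sources used here do not give the aligner, the counting tool or its strand setting. The kit was NEBNext Ultra RNA, per the labels' protocols. The table has 27505 features, 19974 of them Ensembl genes, and 0 columns of per-sample values were left unused. Spreadsheet dates in 27 symbols were restored from the Ensembl identifier with GENCODE v29, which also gave positions and lengths.

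In R 4.3.3, edgeR 4.0.16 (filterByExpr defaults, TMM, glmQLFit robust, glmQLFTest) took the 12 libraries together, with 1 coefficient for each group, leaving 8 residual degrees of freedom. It tested 14865 Ensembl genes and 3979 unannotated loci. P-values were two-sided. Benjamini-Hochberg adjustment covered every tested feature, and a call needed an adjusted p under 0.05. SE was derived from F as |log2 fold change| / √F. The fit was also run on simulated counts in which few features changed, as many up as down. That setting is unlike the wide response here and does not test the scaling under it. DESeq2 1.42.0 was an alternative, beside other scalings, no filter, fits within a line, Ensembl genes only, a replicate block and leaving out each library. Correlations used log2 CPM with a prior count of 2. Ratios and figures were made in Python 3.11.15 (scipy 1.17.1, matplotlib 3.10.9). RefSeq promoters were found by symbol for all 10 genes. For HEXIM1, HEXIM2 and CDK12 the bases after the start of the first promoter entry did not occur in GENCODE v29 transcripts.

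All 10 genes were named, with the 2 largest called rises and falls per list and line and the 3 most similar genes of each called member, except 2 genes not reported here. Members and lists were chosen with earlier results of these data known. Recounts of the lists under the alternatives were chosen after seeing the data.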

Additional observations from a re-analysis of the deposited data

Results flagged for a closer look

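The THZ1 response of 5 genes differed between the lines by a test of the difference itself (Y79 minus WERI, edgeR's quasi-likelihood test, adjusted p under 0.05 over all tested features). The log2 differences were -1.32 for CDK12, 0.48 for CCNT2, -0.40 for HEXIM1, -0.76 for LARP7 and -0.48 for MEPCE. For CDK12 and LARP7 the difference was called under each alternative run. For HEXIM1 the adjusted p ranged from 0.000829 to 0.402 over 19 alternatives, for CCNT2 from 8.16e-05 to 0.0734, and for MEPCE from 0.000194 to 0.163. CDK12 and CCNT2 were called in 1 line and not in the other, and HEXIM1, LARP7 and MEPCE moved in the same direction in both lines under TMM.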

How the results depend on the processing

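Of 770 fold changes of the 10 genes under the alternatives, 685 kept their direction and side of the threshold, 45 turned sign, and of the others 24 lost a call and 16 gained one. Counting the sign turns, of which 3 lost and 10 gained a call, 27 calls were lost and 26 gained. Unless said, the cause was not tested. Library size alone gave 1 higher and 8 lower genes in WERI, 9 lower in Y79, 0 with a higher response in Y79 and 1 higher in Y79 at baseline. Mitochondrial scaling gave 0 higher and 9 lower in each line, 2 with a higher and 2 with a lower response in Y79, and 1 higher in Y79 at baseline. RLE factors, DESeq2 and Ensembl genes only each gave 2 higher in Y79 (CDK9 added) and 2 with a higher response in Y79 (CCNT1 added). Leaving out 1 library gave 1 to 2 higher and 4 to 6 lower in Y79, 1 to 2 higher and 3 to 4 lower in the response difference, and 3 to 4 higher and 2 to 4 lower at baseline.

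The signs that turned with library size and with mitochondrial scaling were, in WERI, those of CDK12 (-0.41 and -1.86), CCNK (-0.41 and -1.86) and CDK9 (-0.069 and -1.52). In Y79 they were those of CCNK (-0.55 and -1.71), CDK9 (-0.38 and -1.52) and CCNT2 (-0.55 and -1.70), and with mitochondrial scaling HEXIM1 (-0.065). Mitochondrial scaling also turned the response differences of CDK13 (0.091), CCNK (0.15) and CDK9 (0.0024) and the baseline of MEPCE (-0.041). At baseline CCNK (-0.015 and -0.13) and HEXIM2 (-0.042 and -0.16) turned with both. In Y79, CCNK was at -0.021 and CCNT2 at -0.010 without the filter, and CCNK at -0.00047 within the line.

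Without single libraries, WERI values ran from -0.035 to 0.061 for CDK12 and -0.017 to 0.093 for CCNK, and Y79 values from -0.15 to 0.073 for CCNK and -0.013 to 0.021 for CCNT2. Response differences ran from -0.19 to 0.053 for CDK13 and -0.17 to 0.059 for CCNK, and the WERI ratio of CCNK to CDK12 from -0.066 to 0.057.

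Same-numbered libraries of a line did not deviate together over all tested genes (r from -0.0601 to 0.00586). This check cannot show a pairing that moves only some genes. With a replicate block CCNK in Y79 was at -0.0072, HEXIM1's response difference missed the threshold (-0.40, adjusted p = 0.0559), and no other call of the 10 genes changed within the lines or in the response difference. The baseline comparison has no block. In the blocked ratios the smallest exact sign-flip p was 0.25. Depth limits HEXIM2 most, with 43 to 224 counts a library.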
